A study of Mus musculus with 10 samples.

Results

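Peroxisome genes were examined in mouse lung tumors in which the glucose transporter gene Slc2a1 (Glut1) was targeted. The set held 43 genes, 13 peroxins and 30 genes of peroxisomal enzymes and membrane proteins, each found by its symbol among the 39017 genes of the deposited count table. The libraries came from 5 KP tumors and 5 KPG1 tumors, lung adenocarcinomas started by an adenovirus that carries Cre recombinase under the SPC promoter, which limits where tumors begin to cells that express surfactant protein C. All mice were C57BL/6 males, tumors were taken 18 weeks and 6 days after initiation, and RNA was prepared from the fraction left once cells bearing the leukocyte marker CD45 had been removed on magnetic beads. KPG1 mice carried homozygous floxed Slc2a1. The genotype label of the KP libraries reads heterozygous for a floxed allele while their group label reads wild type, so KP stands here for the group labelled as control. Both groups also share the alleles that drive tumor formation, which are not reported here. The labels do not say which tumors came from separate mice, so p-values measure only the spread between these samples.

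Peroxisomes are organelles bounded by a single membrane that shorten very-long-chain and branched fatty acids, begin the synthesis of ether lipids such as plasmalogens, and break down hydrogen peroxide with catalase. Peroxins build them: some insert membrane proteins, some carry enzymes made in the cytosol to a docking complex, and a ubiquitin ligase and an ATPase then pull the carrier back out. Alveolar type 2 cells, which make surfactant from large amounts of lipid, are known to be rich in peroxisomes.

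With limma-voom, no peroxisome gene passed the adjusted threshold between KPG1 and KP. Of the 43 genes, 41 had enough counts to be tested, and none was called in either direction with Benjamini-Hochberg adjustment over all 16216 tested genes, against 0.0617% of all genes called higher and 0.111% called lower. At an unadjusted p under 0.05 limma-voom had 7 members higher and 2 lower in KPG1 (5.26% and 6.31% of all genes). The quasi-likelihood test of edgeR had 5 and 3 (4.69% and 7.78%), and DESeq2 had 5 and 3 (5.1% and 8.92%). After adjustment edgeR called 0 members (0.0678% of all genes higher and 0.179% lower). DESeq2 called Pex13 higher and Ephx2 lower, where it called 0.771% of all genes higher and 2.61% lower. In simulated data 46 of 181 DESeq2 calls were false, against 3 of 115 for limma-voom, which limits every DESeq2 call given here. The fitted log2 fold change (KPG1 minus KP) was above 0 for 32 of 41 members, against 52.7% of all genes, with a median of 0.14 for the members and 0.02 for all genes. Peroxins and the other members had the same median of 0.14, with 12 of 13 peroxins and 20 of 28 other tested members above 0. In bulk samples, fewer cells of a type and less RNA per cell cannot be told apart.

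Depth was 32427029 to 49534284 counts per library, at similar means in KP and KPG1 (exact permutation p 0.817). Slc2a1 itself was lower in KPG1, with a log2 CPM (log2 of the counts scaled to library size, prior count 2) of 5.63 ± 0.27 (SD, n = 5) against 6.63 ± 0.38 in KP, and the groups did not overlap (two-sided exact permutation p 0.00794, the smallest this design allows). In the limma-voom fit used for the members, the difference of Slc2a1 was -1.01 with an adjusted p of 0.0675. The targeted gene was thus not called in that fit, while DESeq2 called it (-1.04, adjusted p 2.55e-04). Marker genes of cell types and states were compared in the same libraries, and none was called after adjustment by limma. All 8 alveolar type 2 markers had a fitted value higher in KPG1 (52.7% of all genes). Of them, 3 had an unadjusted p under 0.05 by limma (5.26% of all genes were higher at that threshold). Their summed level ran from 18383 to 62851 CPM in KP and from 47834 to 87767 CPM in KPG1. The 10 proliferation markers also all had a higher fitted value (52.7% of all genes). Their sums were 54.5 to 334 CPM in KP and 281 to 493 CPM in KPG1. KP 5 had the 54.5 CPM, and the remaining controls had 257 to 334 CPM. The sum of 4 epithelial markers did not overlap, at 3886 to 5470 CPM in KP and 2881 to 3540 CPM in KPG1. Krt8 and Krt18 were the members with a low unadjusted p (2.97e-04 and 9.27e-05 by limma), with differences of -0.67 and -0.87. Epcam and Cdh1 had 0.05 and -0.10 (unadjusted p 0.771 and 0.607 by limma). Club cell markers summed to 28.0 to 158 CPM in KP and 123 to 323 CPM in KPG1, and 2 of the 4 had a higher fitted value. Cyp2f2 had 2.11 (unadjusted p 0.00295 by limma), while Scgb1a1, Scgb3a2 and Scgb3a1 had -0.18, -0.12 and 0.20. Endothelial markers summed to 215 to 611 CPM in KP and 328 to 955 CPM in KPG1. KPG1 1 had the 955 CPM, and the other KPG1 tumors had 328 to 504 CPM, inside the KP range. All 6 endothelial and all 6 fibroblast markers had a higher fitted value. Fibroblast markers summed to 93.8 to 253 CPM in KP and 159 to 269 CPM in KPG1. A higher fitted value was also seen for 5 of 6 alveolar type 1, 3 of 5 erythroid, 2 of 6 ciliated and 0 of 2 tested mesothelial markers. Leukocyte markers summed to 89.6 to 180 and 102 to 174 CPM, most of it Cd14. Within that list Itgam and S100a8, markers of myeloid cells, were below every control in every KPG1 tumor (1.76% of all genes). Their differences were -1.04 and -1.84 (unadjusted p 0.00901 and 0.00342 by limma). No marker of these lists was at 0 in every library, and the part of these cell types in the peroxisome values was not tested.

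Enzymes stood at both ends of the range of levels per length, and peroxins lay between them. Catalase (Cat), which splits hydrogen peroxide, stood at 178 ± 33.4 CPM per kb of exon in KP and 201 ± 21.3 in KPG1 (SD, n = 5). Gnpat, the first enzyme of ether lipid synthesis, followed with 88.9 ± 10.96 and 97.8 ± 18.2 CPM per kb. Their spreads did not meet those of any other member. Scp2, Ech1, Hsd17b4, Far1 and Abcd3 came next, with means over all libraries of 34.9 to 40.6 CPM per kb that lay within each other's spread. The most abundant peroxin was Pex2 at 22.8 CPM per kb over all libraries, then Pex19 at 18.5 and Pex5 at 17.1, and the least was Pex7 at 2.52. Exon length counts every annotated transcript, and the 12.1 kb of Pex7 lower its value. At the bottom lay Acaa1b, Dao, Hao1, Abcd2 and Slc27a2, at 0.078 to 0.599 CPM per kb, genes better known from liver, kidney or brain.

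**Figure D1:**
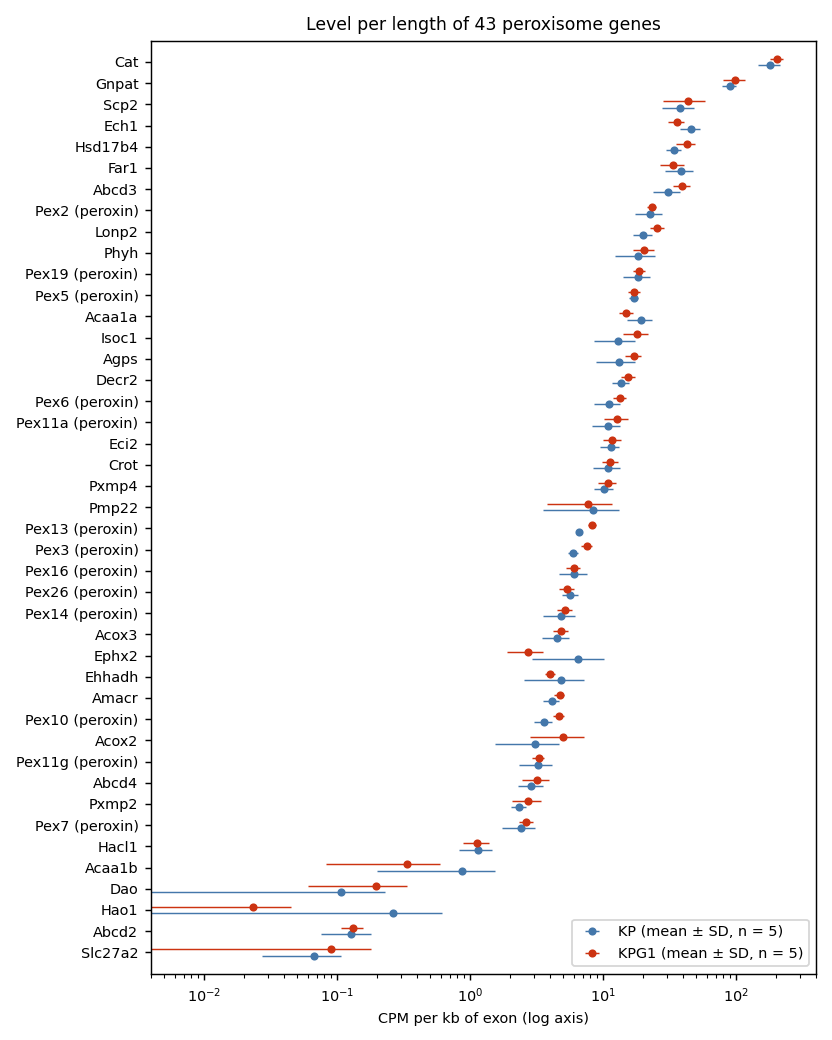
Level of each of the 43 genes as CPM per kb of exon on a log axis, with the mean and SD of 5 libraries per group; a bar that would pass 0 runs to the left edge. Cat and Gnpat stand above all others, and the KP and KPG1 bars overlap for most genes.

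Promoter sequence was read for the members the results turn on, to show what the start regions look like where RefSeq and the build GRCm38.p6 give them. Windows of 250 bases before the start were listed for 34 of the 43 members, in 45 windows, and not for Amacr, Abcd2, Abcd4, Ephx2, Pex19, Pxmp2, Hsd17b4, Pex2 and Isoc1. The element of PPAR-RXR receptors written as 2 exact AGGTCA repeats with a base between them was in 0 of 45 windows, searched on both strands. It was in only 11 of all 32851 windows (0.0335%), so 0 of 45 cannot tell the members from other genes. Looser forms of the element and sites beyond the 250 bases were not searched. A single AGGTCA was in 5 of 45 (11.1%, all windows 14.0%). The GC box GGGCGG, letters to which Sp factors bind, was in 27 of 45 member windows (60%) and in 32.7% of all windows. Member windows also had more G and C, with a median of 58.8% against 52.4%. The CCAAT box was in 40% of member windows and 33.8% of all, and the E-box CACGTG in 6.67% and 6.02%. Pex10, Abcd3 and Lonp2 are shown as members with an unadjusted p under 0.05 whose windows are clear of exons over at least 236 of 250 bases, at the start listed for the gene's own 5′ end, with GC boxes in capitals. Pex10 lies at chr4:155066780-155067015 on the plus strand, Abcd3 at chr3:121815303-121815552 on the minus strand and Lonp2 at chr8:86623793-86624042 on the plus strand, each just upstream of its gene.
Pex10: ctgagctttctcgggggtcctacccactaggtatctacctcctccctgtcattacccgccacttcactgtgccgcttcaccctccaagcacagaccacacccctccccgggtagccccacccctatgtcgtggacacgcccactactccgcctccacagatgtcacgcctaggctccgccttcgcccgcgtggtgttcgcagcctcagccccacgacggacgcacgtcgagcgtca
Abcd3: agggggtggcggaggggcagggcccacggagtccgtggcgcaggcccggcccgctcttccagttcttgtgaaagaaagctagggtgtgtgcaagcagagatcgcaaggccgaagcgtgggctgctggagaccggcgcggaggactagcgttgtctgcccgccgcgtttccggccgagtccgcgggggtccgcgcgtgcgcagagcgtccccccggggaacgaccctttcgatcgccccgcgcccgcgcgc
Lonp2: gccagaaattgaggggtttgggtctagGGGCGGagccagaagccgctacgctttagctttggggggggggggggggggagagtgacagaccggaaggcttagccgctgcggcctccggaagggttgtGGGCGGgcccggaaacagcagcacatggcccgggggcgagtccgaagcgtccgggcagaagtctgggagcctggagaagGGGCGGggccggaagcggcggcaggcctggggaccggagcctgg
These 3 windows hold 65.6%, 72% and 70.4% G and C, and among them Lonp2 shows GC boxes, 3 of them. A second Lonp2 window at an inner start, with 45.2% G and C and no GC box, and that of Ech1, with 51.2% and 129 bases clear of exons, are not printed. The GC box found for Pex10 lies outside the stretch that is clear of exons.

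Peroxins that insert membrane proteins were taken first. Pex3 is the docking site in the membrane for Pex19, the chaperone that brings membrane proteins. It lies on chromosome 10 at 13523842 to 13553142, minus strand. Pex3 had log2 CPM values of 4.76, 4.77, 4.84, 4.67 and 5.00 in KP 1 to 5, and 5.30, 4.99, 5.25, 5.23 and 4.99 in KPG1 1 to 5. KP 5, the highest control, lay just above the lowest KPG1 tumors, and the other controls were lower than every KPG1 tumor. The fitted difference was 0.34 on the log2 scale (SE 0.12), a fold of 1.27, at an unadjusted p of 0.0135 and an adjusted p of 0.300 by limma. Exons of Adat2 overlap those of Pex3 on the other strand, and the difference of Adat2 was -0.13 (SE 0.22). Without a stated strand setting the reads of such pairs cannot be told apart. Pex19 had values of 6.52, 5.89, 6.33, 6.04 and 5.70 in KP and 6.38, 6.04, 6.15, 6.00 and 6.17 in KPG1, with the controls spread more widely and around the KPG1 tumors. Its fitted difference was 0.05 (SE 0.16), and that of Pex16, which helps Pex3 reach the membrane, was 0.03 (SE 0.20).

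The cargo receptors are Pex5 and Pex7. Pex5 binds the carboxy-terminal signal that most matrix enzymes bear. Its log2 CPM values were 6.02, 6.05, 6.21, 5.93 and 6.11 in KP and 5.87, 5.98, 6.14, 6.22 and 6.15 in KPG1. The groups covered the same range, and the fitted difference was 0.01 (SE 0.11). Pex7, which serves the amino-terminal signal of a few enzymes such as Agps and Phyh, ranged from 4.44 to 5.43 in KP and from 4.81 to 5.18 in KPG1, with a difference of 0.15 (SE 0.18).

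At the docking complex Pex13 was the most even gene of the set. It anchors the receptor on the membrane together with Pex14 and lies on chromosome 11 at 23646479 to 23665959, minus strand. Pex13 had log2 CPM values of 4.97, 4.98, 4.87, 4.87 and 4.99 in KP and 5.19, 5.27, 5.14, 5.41 and 5.25 in KPG1. Every KPG1 tumor was above every control, which held for 1.05% of all genes. The within-group SD was 0.08, the lowest of the 41 tested members, where the median over all genes was 0.35. The difference was 0.31 (SE 0.10), a fold of 1.24, with an unadjusted p of 0.0101 and an adjusted p of 0.272 by limma. DESeq2 gave 0.30 with an adjusted p of 0.0301, and the adjusted p ran from 0.0301 to 0.564 over all alternatives. Pus10 overlaps Pex13 in its exons and starts 285 bases away on the other strand, and its own difference was 0.28 (SE 0.14, unadjusted p 0.0749 by limma). A processed pseudogene of Pex13, 91.3% identical over 1182 bases, held at most 1 count. Pex14 ranged from 4.34 to 5.29 in KP and from 4.83 to 5.27 in KPG1, with a difference of 0.14 (SE 0.19).

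Pex2 and Pex10 are RING subunits of the ligase that puts ubiquitin on the receptor so that it can leave the membrane. Pex10 had log2 CPM values of 3.21, 3.71, 3.66, 3.41 and 3.73 in KP and 3.95, 3.96, 4.11, 3.87 and 3.77 in KPG1. Every KPG1 tumor was above every control (1.05% of all genes), although the highest controls came close to KPG1 5. The difference was 0.40 (SE 0.15), a fold of 1.32, with an unadjusted p of 0.0204 and an adjusted p of 0.336 by limma. Pex2 had values of 5.34, 5.56, 5.41, 5.81 and 6.11 in KP and 5.86, 5.72, 5.56, 5.67 and 5.77 in KPG1. The KPG1 tumors fell inside the range of the controls, and the difference was 0.07 (SE 0.15).

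Pex6 is the ATPase that extracts the ubiquitinated receptor, and Pex26 holds it on the membrane. Pex6 had log2 CPM values of 5.17, 5.24, 5.86, 5.16 and 5.36 in KP and 5.86, 5.64, 5.72, 5.68 and 5.38 in KPG1. KP 3 was as high as the KPG1 tumors while the other controls were at or below the lowest of them. The difference was 0.30 (SE 0.15, unadjusted p 0.0768). Pex26 was the peroxin with a fitted value lower in KPG1, at -0.09 (SE 0.13).

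Pex11a and Pex11g elongate peroxisomes before they divide. Pex11a had log2 CPM values of 5.34, 5.44, 5.00, 4.51 and 5.04 in KP and 5.71, 5.40, 5.40, 4.93 and 5.15 in KPG1, and the groups overlapped. The difference was 0.26 (SE 0.20) for Pex11a and 0.08 (SE 0.22) for Pex11g, which ranged from 2.64 to 3.73 in KP and from 3.30 to 3.69 in KPG1.

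**Figure D2:**
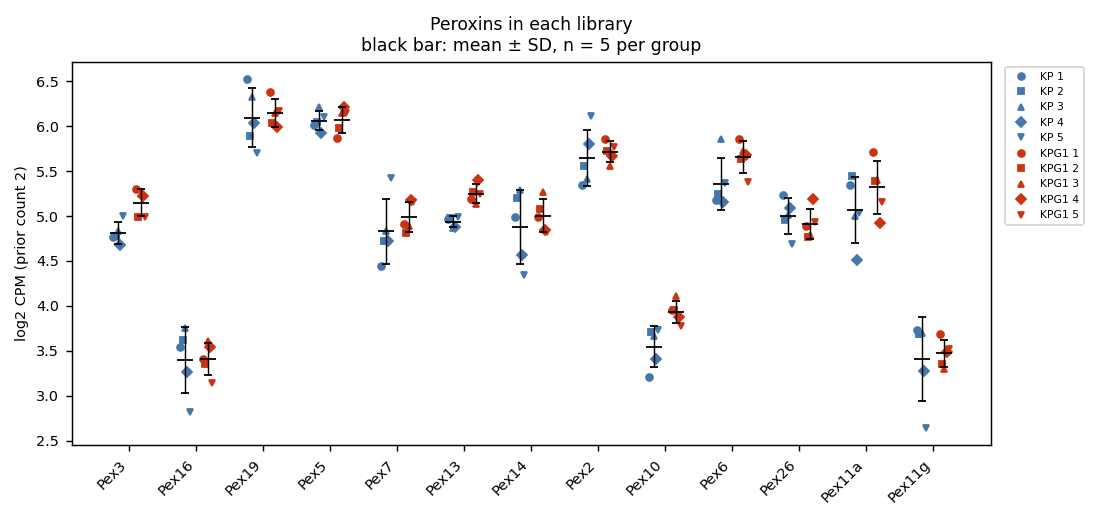
Log2 CPM of the 13 peroxins in each library, KP in blue and KPG1 in red, with a marker shape per replicate number and the mean and SD in black (n = 5). Pex13 and Pex10 are the peroxins without overlap between groups, and KP 5 is the lowest control for Pex16, Pex14 and Pex11g and the highest for Pex7 and Pex2.

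Among the membrane proteins, Abcd3 was by far the most abundant. It is the ABC transporter that admits branched and long-chain acyl-CoA, and lies on chromosome 3 at 121758774 to 121815302, minus strand. Abcd3 had log2 CPM values of 7.33, 7.54, 7.41, 7.75 and 8.12 in KP and 8.30, 8.04, 7.97, 7.92 and 7.77 in KPG1. KP 5 exceeded all KPG1 tumors but KPG1 1, and the remaining controls were below all of them. The difference was 0.37 (SE 0.16), a fold of 1.29, with an unadjusted p of 0.0465 and an adjusted p of 0.423 by limma. Abcd2, a related transporter of very-long-chain acyl-CoA, was barely counted, and its difference was 0.14 (SE 0.34). Abcd4, which despite its family acts in lysosomes in vitamin B12 export, had 0.15 (SE 0.19). Pxmp2, a channel for small solutes, had 0.22 (SE 0.23), and Pxmp4, an abundant membrane protein of unclear role, had 0.08 (SE 0.16). Pmp22 is listed with this set but its symbol belongs to peripheral myelin protein, a protein of the cell surface, and its difference was -0.06 (SE 0.40). Slc27a2, an acyl-CoA synthetase for very-long-chain fatty acids, had 3 to 18 counts in the KP libraries and 4 to 41 in those of KPG1, and was not tested.

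Beta oxidation starts with acyl-CoA oxidases, passes through a bifunctional enzyme and ends with a thiolase. The median difference of its 12 members was 0.09, with 8 above 0. Hsd17b4, the bifunctional enzyme for branched and very-long-chain substrates and for bile acid side chains, had log2 CPM values of 6.96, 6.62, 6.78, 6.74 and 7.09 in KP and 7.51, 7.14, 7.17, 6.90 and 7.04 in KPG1. The groups overlapped through KP 1 and KP 5, and the difference was 0.32 (SE 0.14), a fold of 1.24, with an unadjusted p of 0.0437 and an adjusted p of 0.417 by limma. Its counterpart for straight chains, Ehhadh, had -0.19 (SE 0.25), with a single high control, KP 5 at 4.73.

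Ech1, a dienoyl-CoA isomerase of peroxisomes and mitochondria that serves unsaturated fatty acids, pointed the other way. It lies on chromosome 7 at 28825217 to 28832247, plus strand. Ech1 had log2 CPM values of 6.39, 6.71, 6.45, 6.93 and 6.91 in KP and 6.46, 6.46, 6.17, 6.04 and 6.53 in KPG1. KP 1 and KP 3 were as low as several KPG1 tumors, and the difference was -0.35 (SE 0.15), a fold of 0.786, with an unadjusted p of 0.0406 and an adjusted p of 0.407 by limma. The other enzymes for unsaturated chains, Decr2 and Eci2, had 0.18 (SE 0.13) and 0.05 (SE 0.15).

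Scp2, a thiolase and sterol carrier, was the beta oxidation gene with the most counts. Its log2 CPM values were 6.26, 7.15, 7.19, 6.95 and 7.41 in KP and 7.89, 7.36, 7.02, 6.78 and 6.81 in KPG1, with KP 1 the lowest and KPG1 1 the highest library. The difference was 0.18 (SE 0.25). A transcribed pseudogene, Scp2-ps2, is 99.6% identical to Scp2 over 1371 bases and held up to 4793 counts in a library, so the counts of Scp2 are uncertain. The thiolases Acaa1a and Acaa1b are 98.7% identical over 783 bases and could likewise exchange reads. Acaa1a had a difference of -0.35 (SE 0.16, unadjusted p 0.0511) and Acaa1b, whose control values spread from -3.38 to 1.74, had -0.85 (SE 1.09).

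The oxidases and accessory enzymes had unadjusted p-values above 0.05. Acox2, the oxidase of bile acid intermediates and branched chains, ranged from 2.11 to 4.18 in KP and from 3.17 to 4.95 in KPG1, with a difference of 0.78 (SE 0.41, unadjusted p 0.0847). Acox3, which also oxidizes branched chains, had 0.11 (SE 0.16). Amacr, the racemase that readies branched chains for oxidation, had 0.20 (SE 0.15), and Crot, which passes shortened chains to carnitine for export to mitochondria, had 0.07 (SE 0.17).

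Alpha oxidation removes a carbon from branched chains that beta oxidation cannot enter. Phyh, its hydroxylase, had log2 CPM values of 4.67, 4.89, 4.62, 5.62 and 5.48 in KP and 5.22, 5.57, 5.31, 5.28 and 4.82 in KPG1. KP 1, KP 2 and KP 3 lay near or under the lowest KPG1 tumor and KP 4 and KP 5 near the highest, and the difference was 0.18 (SE 0.22). Hacl1, the lyase that follows, had -0.01 (SE 0.23).

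Ether lipid synthesis takes place on the inner face of the peroxisomal membrane through Gnpat and Agps, with fatty alcohol supplied by Far1. Gnpat had log2 CPM values of 8.08, 8.52, 8.23, 8.26 and 8.46 in KP and 8.75, 8.68, 8.16, 8.31 and 8.28 in KPG1. KPG1 1 and KPG1 2 were above every control and the others among them, with a difference of 0.13 (SE 0.15). Agps had 0.42 (SE 0.20, unadjusted p 0.0542), and Far1 had -0.19 (SE 0.22), so the fitted values of this short pathway lay on both sides of 0.

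Apart from the barely counted Dao, Ephx2 had the largest fitted difference of the tested members. It encodes soluble epoxide hydrolase, an enzyme of cytosol and peroxisomes that opens fatty acid epoxides, and lies on chromosome 14 at 66084374 to 66124500, minus strand. Ephx2 had log2 CPM values of 3.77, 3.25, 4.03, 4.97 and 3.31 in KP and 2.77, 2.90, 1.80, 3.18 and 2.84 in KPG1. Every KPG1 tumor was below every control, which held for 1.76% of all genes, with a narrow gap between KP 2 and KPG1 4. The difference was -1.21 (SE 0.37), a fold of 0.433, with an unadjusted p of 0.00721 and an adjusted p of 0.245 by limma. DESeq2 called it lower at -1.27 with an adjusted p of 0.0213, and the adjusted p ran from 0.0213 to 0.651 over the alternatives. Without KP 4, its highest control, the difference was -0.92, and without KPG1 3, its lowest library, it was -0.97.

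The role of oxidases and other matrix proteins, which includes Ephx2, had 5 tested members. Of these, 4 had fitted values above 0 (52.7% of all genes), and Ephx2 had the value below 0. Catalase had log2 CPM values of 8.83, 8.92, 8.57, 8.66 and 9.24 in KP and 8.75, 9.12, 9.10, 9.05 and 9.15 in KPG1. KPG1 1 lay well under the other KPG1 tumors and KP 5 above all libraries, and the difference was 0.19 (SE 0.15).

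Lonp2, the protease and chaperone of the matrix, lies on chromosome 8 at 86624043 to 86723873, plus strand. It had log2 CPM values of 6.68, 6.96, 6.88, 6.78 and 6.33 in KP and 7.19, 7.30, 7.05, 6.97 and 6.91 in KPG1. Only KP 2 reached above the lowest KPG1 tumor, and the difference was 0.35 (SE 0.14), a fold of 1.28, with an unadjusted p of 0.0274 and an adjusted p of 0.365 by limma. Isoc1, a matrix protein with an isochorismatase domain, had values of 5.42, 5.63, 5.13, 4.70 and 6.01 in KP and 5.98, 6.30, 5.90, 5.89 and 5.42 in KPG1. The groups overlapped at both ends, through KP 5 and KPG1 5, and the difference was 0.52 (SE 0.24), a fold of 1.44, with an unadjusted p of 0.0487 and an adjusted p of 0.431 by limma. Dao, which oxidizes D-amino acids, was near the floor of counting, with a difference of 1.44 (SE 0.87, unadjusted p 0.123). Hao1, the glycolate oxidase, was not tested, with 4 to 83 counts in the KP libraries and 0 to 5 in those of KPG1.

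**Figure D3:**
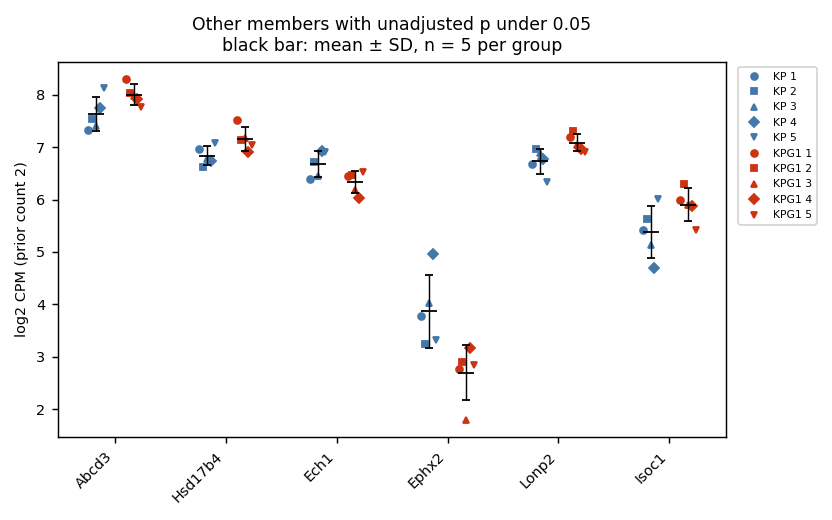
Log2 CPM in each library of the 6 enzymes and membrane proteins with an unadjusted p under 0.05, KP in blue and KPG1 in red, with the mean and SD in black (n = 5). Ephx2 is the gene without overlap between groups, and for Abcd3 and Isoc1 KP 5 is the highest control.

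**Figure D4:**
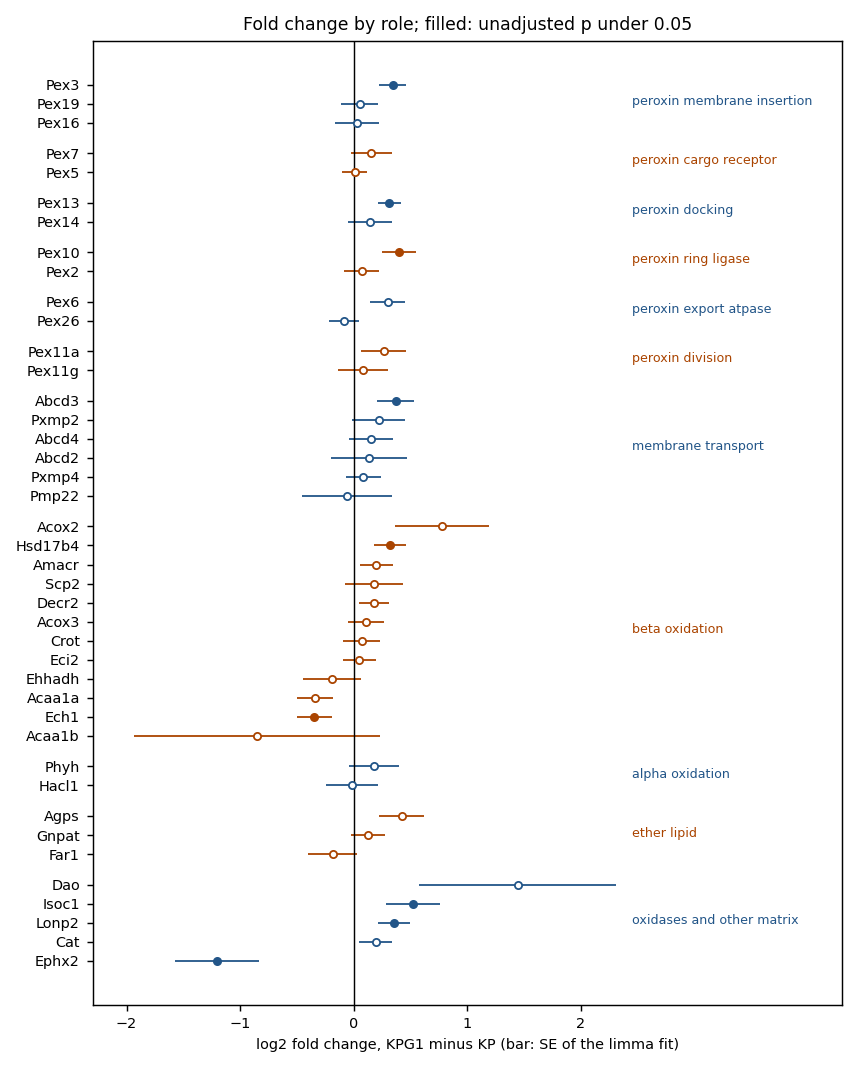
Log2 fold change of KPG1 over KP for the 41 tested members, grouped by role, with the SE of the limma fit; filled points have an unadjusted p under 0.05. The points lean to the right of 0 in most roles, and Ephx2, Ech1, Acaa1a and Acaa1b lie furthest to the left.

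The 9 members with an unadjusted p under 0.05 differed in how often they kept it. Pex3, Pex13 and Ephx2 kept an unadjusted p under 0.05 in all 10 fits that left out a library, Pex10 in 8 and Lonp2 in 7. Ech1 kept it in 5, Hsd17b4 in 4, Isoc1 in 3 and Abcd3 in 2. The number of members with a higher fitted value and an unadjusted p under 0.05 moved from 7 to 4 without KP 4 and to 3 without KPG1 2 or KPG1 3. The number with a lower one moved from 2 to 1 without KP 2, KPG1 3 or KPG1 4. With the sample number of the titles as a covariate, which is 6 to 16 in KP and 1 to 10 in KPG1, Lonp2 was the 1 member higher (0.47) and Ehhadh the 1 lower (-0.70) at an unadjusted p under 0.05 (9.91% of all genes in either direction), and 26 of 41 had a fitted value above 0 (49.5% of all genes). The other 8 of the 9 no longer had such a p in that fit, among them Pex3 (0.29, unadjusted p 0.0938), Pex13 (0.25, unadjusted p 0.0909) and Ephx2 (-0.65, unadjusted p 0.161). Apart from KP 5, numbered 6, the controls had numbers of 11 to 16, above every KPG1 library. Number and genotype thus largely coincide and cannot be fully told apart. For Pex3, Pex13 and Ephx2 the SE was 0.16, 0.14 and 0.43 in that fit, against 0.12, 0.10 and 0.37 without the number. That of Isoc1 fell from 0.24 to 0.21. The labels do not call this number a batch, and its part in the differences was not tested.

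KP 5 stood apart from the other controls. It was the highest control for 5 and the lowest for 5 of 13 peroxins, and the highest for 13 and the lowest for 5 of 28 other members, where it was the highest for 30.8% and the lowest for 30.7% of all genes. It also had the lowest proliferation sum, 54.5 CPM. Members in which it was the highest control had transcripts with a median GC content of 46.1% (n = 18), and those in which it was the lowest had 52.5% (n = 10). Spearman's rho between GC content and the deviation of KP 5 was -0.49 over the 41 genes, which share the libraries. The relation was not computed over all genes, so it cannot be called particular to the members. KP 5 also had the most counts (49534284) and the lowest TMM scaling factor (0.88) of the 10 libraries, and the part of either was not tested. Without KP 5, 42 members were tested and 0 were called by limma-voom, where it called 0.431% of all genes higher and 1.35% lower, with 9 members higher and 3 lower at an unadjusted p under 0.05 (18.6% of all genes in either direction). The member added was Slc27a2, with a difference of 0.01.

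**Figure D5:**
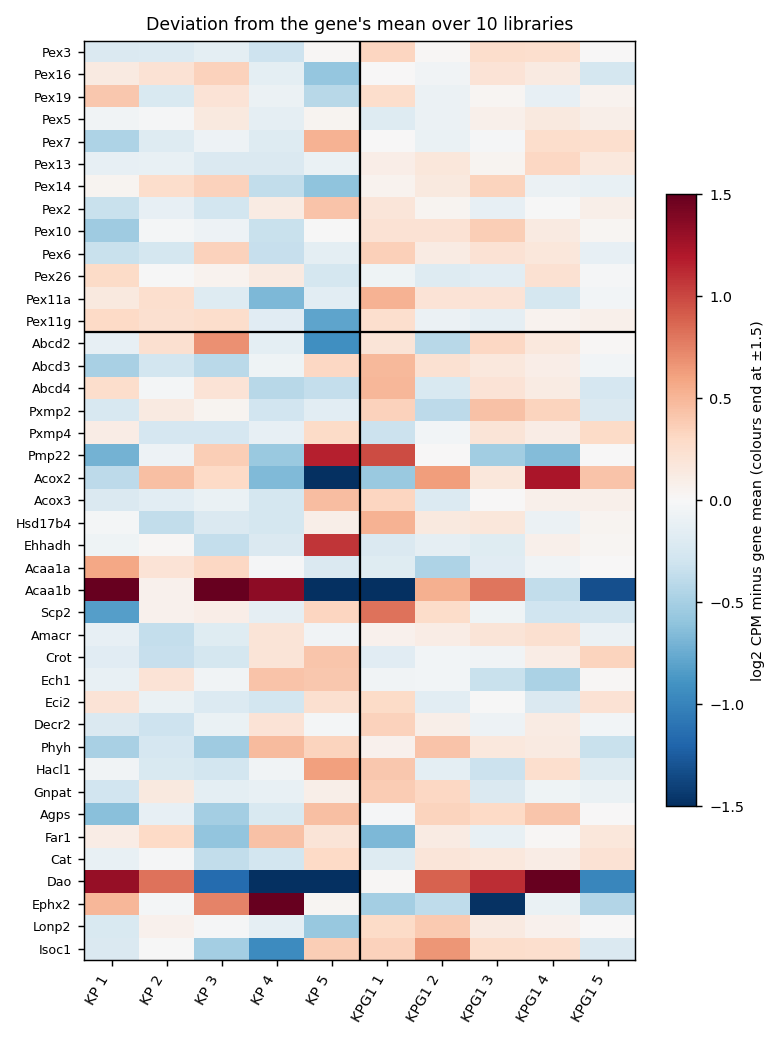
Deviation of each tested member from its own mean over the 10 libraries, in log2 CPM, with peroxins above the horizontal line and KP left of the vertical line; colors end at 1.5 in either direction. KP 5 is dark in both directions, and Acaa1b, Dao, Acox2 and Ephx2 vary most between libraries.

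Averaged over the members of a class, the peroxins deviated by -0.21 to 0.06 log2 CPM in KP and by 0.01 to 0.15 in KPG1, and the other members by -0.09 to -0.01 and -0.09 to 0.12. The groups therefore overlapped in both classes. Over all tested genes the same mean ran from -0.08 to 0.07 across the KP libraries and from -0.05 to 0.01 across those of KPG1. Taken as a median, the deviation of the other members was 0.22 in KP 5, the highest of all libraries. It was -0.16 to -0.02 in the remaining controls and 0.0016 to 0.15 in KPG1, so by median the overlap came from KP 5.

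Further genes of peroxisomes and of the pathways that feed them were examined as lists. Of 36 other peroxisomal genes 29 were tested, and 20 had a fitted value higher in KPG1, with a median of 0.12 (52.7% of all genes, median 0.02). Here 3 were higher and 1 lower at an unadjusted p under 0.05, where 5.26% and 6.31% of all genes were. Trim37, a ubiquitin ligase that acts on Pex5, had log2 CPM values of 4.80, 4.79, 4.82, 4.91 and 4.65 in KP and 5.09, 5.04, 5.18, 5.13 and 5.08 in KPG1. It was higher in every KPG1 tumor than in every control (1.05% of all genes), with a difference of 0.31 (unadjusted p 0.00967). Nudt12, an NADH diphosphatase, had a difference of 0.64 (unadjusted p 0.0063), Hsdl2, a sterol carrier domain protein, had 0.37 (unadjusted p 0.0225), and Usp2, a deubiquitinase, had -1.45 (unadjusted p 0.0448).

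Of the genes for division and turnover of the organelle, 7 of 8 were tested, with differences of -0.10 to 0.14, and 0 had an unadjusted p under 0.05 by limma. The 8 genes of PPAR and RXR receptors and coactivators, which drive many peroxisomal genes in liver, were split evenly, with 4 above 0. Ppargc1a, a coactivator of these receptors, had log2 CPM values of 2.28, 3.42, 3.09, 3.13 and 4.08 in KP and 4.12, 3.81, 3.78, 4.07 and 4.40 in KPG1. KP 5 again reached the KPG1 tumors, and the difference was 0.84 (unadjusted p 0.0115). Ppara, the main receptor for peroxisomal genes, had 0.46 (unadjusted p 0.0723), and Pparg had -0.37 (unadjusted p 0.133).

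Bile acid side chains are shortened in peroxisomes, and 5 of 11 other genes of bile acid synthesis were tested. Cyp7b1, an oxysterol hydroxylase, had low log2 CPM values of -1.12, -1.73, -1.14, -1.31 and -1.84 in KP and of 0.64, -0.11, -0.75, -0.82 and -0.53 in KPG1. All KPG1 tumors were above all controls (1.05% of all genes), with a difference of 1.20 (unadjusted p 0.00743). Hsd3b7 was lower in every KPG1 tumor by a small step (1.76% of all genes did not overlap in this direction), at -0.18 (unadjusted p 0.101). Of the 9 genes that finish ether lipids in the endoplasmic reticulum, 4 were above 0. Agpat1, an acyltransferase, had 0.36 with an unadjusted p of 0.0267. None of the genes in these lists was called after adjustment by limma, and DESeq2 called Trim37 higher (0.30, adjusted p 0.0361).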

How the data were processed

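RNA was sequenced from the CD45-negative fraction of 10 lung tumors, 5 KP and 5 KPG1, with a stranded mRNA kit. The submitters' processing notes name bcl2fastq 2.17, cutadapt 1.4.2, HISAT2, featureCounts 1.4.4, edgeR and the build mm10. The annotation release and the strand setting are not given in the sources used here. The authors deposited raw counts, which give the reads of each gene without normalization. The combined table and the single files held identical values (390170 compared). A deposited log2 table was not used.

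Low counts were removed with filterByExpr in edgeR 4.0.16, which left 16216 of 39017 genes, and libraries were scaled with TMM. The genotype was fitted with voom and limma 3.58.1 in R 4.3.3, and p-values were adjusted by Benjamini-Hochberg over all tested genes, with a threshold of 0.05. Log2 CPM used a prior count of 2. DESeq2 1.42.0, edgeR's quasi-likelihood test, other scalings, filters and weights, a replicate block, sample number and leaving out each library were alternatives. Depth was 32427029 to 49534284 counts, which covers counting error only, since reads carried no molecular identifiers.

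Tested on simulated data for KPG1 against KP with 16064 genes tested, limma-voom made 115 calls, of which 3 were false, and found 31 of 98 genes with a true 2-fold change and 81 of 97 with a 4-fold change. DESeq2 made 181 calls, of which 46 were false, and found 48 and 87. Exon lengths and overlaps came from GENCODE M21, near-identical copies from blastn 2.17.0 (at least 90% over 500 bases) and promoter windows from RefSeq.

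Members and lists were chosen with earlier results of these data known. All members were named, with the value in each library for those with an unadjusted p under 0.05, those without overlap between groups and the most abundant of each of 11 roles. In the pathway lists, genes with an unadjusted p under 0.05 were named. Hsd3b7, Ppara and Pparg were added after their values were seen.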

Additional observations from a re-analysis of the deposited data

Results flagged for a closer look

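Each tested member and each class mean was searched for a library far from the other 4 of its group, in 108 groups, of which chance would give about 5.4. A total of 4 stood out, by a gap to the nearest library above 0.71 of the range of the group. KP 5 was high for Acox3, at a log2 CPM of 6.18 where the other controls had 5.47 to 5.63 (gap 0.772 of the range). It was also high for Ehhadh, at 4.73 against 3.30 to 3.68 (0.737), and for Hacl1, at 3.08 against 2.20 to 2.42 (0.752). KPG1 1 was low for Cat, at 8.75 against 9.05 to 9.15 (0.745).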

How the results depend on the processing

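Of the 41 tested members, 23 kept the direction of their difference in all 19 other fits and 18 did not. No member was called in any fit but DESeq2, which called 1 higher (Pex13, 0.30) and 1 lower (Ephx2, -1.27). Over all genes, 10 were called higher and 18 lower by limma-voom. The counts were 125 and 423 with DESeq2, 51 and 177 with a weight per library, 5 and 31 with a mean CPM of at least 20, and 4 and 4 with sample number as covariate, while 29 were lower with edgeR and 31 without a filter. Leaving out a library gave 3 to 71 higher and 1 to 223 lower, and 3 to 9 members higher and 1 to 3 lower at an unadjusted p under 0.05. A mean CPM of at least 20 left 1 member lower. It removed Pex10, so that the RING ligase median of 0.0436 was the value of Pex2 alone.

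The replicate numbers shared by the groups did not pair the samples: correlations of same-numbered deviations were -0.122, 0.0760, 0.0573, 0.0635 and -0.161, and 1 of 5 libraries correlated best with its own number. The replicate block gave 4 genes higher and 1 lower over all genes, and 4 members higher and 1 lower at an unadjusted p under 0.05.

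With sample number as covariate, 1 member was higher and 1 lower, and the median was 0.0279 for the other members, 0.27 for membrane insertion and -0.0252 for the oxidases and matrix proteins. Signs also turned for Pex5 (-0.0284), Pex2 (-0.00936), Pex26 (0.0483), Pxmp4 (-0.12), Crot (-0.0309), Phyh (-0.0560), Cat (-0.0852) and Isoc1 (-0.0252). With a weight per library they turned for Pex16 (-0.0849), Pex19 (-0.0131), Pex14 (-0.0156), Pex11g (-0.0991), Abcd2 (-0.11), Ehhadh (0.00743) and Hacl1 (0.0993). Pex16 was -0.0275 with DESeq2, -0.0164 with edgeR and -0.00291 with the block, and Pex5 was -0.00177 with DESeq2 and -0.0150 with the CPM minimum. The cause of these changes was not tested.

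Leaving out a library turned the sign of members with small differences: Pex16 (-0.14 to 0.11), Pex19 (-0.0623 to 0.16), Pex5 (-0.0297 to 0.0438), Pex14 (-0.0114 to 0.24), Pex2 (-0.00677 to 0.17), Pex11g (-0.13 to 0.17), Abcd2 (-0.12 to 0.32), Pmp22 (-0.35 to 0.22), Ehhadh (-0.32 to 0.0547), Scp2 (-0.0151 to 0.28), Crot (-0.0155 to 0.16), Eci2 (-0.0314 to 0.11) and Hacl1 (-0.14 to 0.13). The beta oxidation median ran from 0.00446 to 0.17. Low counts kept Slc27a2 and Hao1 from being tested, and Dao, Acaa1b and Abcd2 had 1 to 136 counts per library.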
